A study of Mus musculus with 2 samples.

Results

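The genes described here are 8 Toll-like receptors (Tlr1, Tlr2, Tlr3, Tlr4, Tlr7, Tlr8, Tlr9 and Tlr13), the co-receptor gene Cd14 and the adaptor gene Myd88. They were chosen by symbol, and all 10 were found among the 31054 gene rows that the 2 count matrices share. They were measured by droplet single-cell RNA sequencing in cells sorted from mouse mammary tumours, with 1 library from a Met-1 transplant and 1 library from a PyMT tumour. Both libraries came from C57BL/6 mice that carry an adipocyte tracer: the adiponectin promoter drives rtTA, doxycycline then switches on TRE-Cre, and Cre turns the Rosa26 mT/mG reporter in adipocytes from membrane tdTomato to membrane EGFP. Cells positive for EGFP and negative for tdTomato were sorted. In the Met-1 transplant, tumour cells were implanted into the mammary gland, and the sample label calls the tumour Met-1 whereas the series text names EO771 cells. In the PyMT tumour, the tracer mice were crossed to mice that develop tumours from the PyMT oncogene. Ages are not given in the sources used here.

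The series text describes the sorted cells as tumour fibroblasts that descend from adipocytes, but most barcodes carried immune genes. Of 2119 kept barcodes of the Met-1 transplant and 589 of the PyMT tumour, 33.4% and 27.0% were macrophages by marker genes, and 11.7% and 2.04% were fibroblasts. EGFP transcript was counted in 2040 of the 2119 kept barcodes of the Met-1 transplant and in 473 of the 589 of the PyMT tumour. Among macrophages it was counted in 687 of 708 in the Met-1 transplant and in 137 of 159 in the PyMT tumour. Adipoq, which encodes adiponectin, had 5 UMIs (unique molecular identifiers, each counting 1 captured RNA molecule) in 1 barcode of the Met-1 transplant and 0 in the PyMT tumour. The kept barcodes had a median of 7706 UMIs in the Met-1 transplant and 3470 UMIs in the PyMT tumour, and the libraries shared 0 cell barcodes.

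Toll-like receptors are membrane proteins of innate immune cells that bind molecules typical of microbes or of damaged cells. Tlr1, Tlr2 and Tlr4 act at the cell surface, where Tlr2 pairs with Tlr1 to bind lipopeptides and Tlr4 binds lipopolysaccharide. Tlr3, Tlr7, Tlr8, Tlr9 and Tlr13 act in endosomes and bind nucleic acids: double-stranded RNA (Tlr3), single-stranded RNA (Tlr7 and Tlr8), CpG DNA (Tlr9) and bacterial ribosomal RNA (Tlr13). Cd14 hands lipopolysaccharide and lipopeptides to Tlr4 and Tlr2, and Myd88 carries the signal of all these receptors except Tlr3 to NF-kB and its inflammatory target genes. In tumours, macrophages and neutrophils are known carriers of this pathway.

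Each barcode was put into the class for which it had UMIs of the most markers, out of 12 markers for each class, and no member is a marker. The Met-1 transplant held 708 macrophages, 24 monocytes, 35 neutrophils, 245 B cells and 352 stromal cells (247 fibroblasts and 105 mural cells). The PyMT tumour held 159 macrophages, 3 monocytes, 186 neutrophils, 29 B cells and 12 stromal cells, all 12 of them fibroblasts. Macrophages carried a median of 8 of their own 12 markers in either tumour, and neutrophils and B cells a median of 9 in the Met-1 transplant and 7 in the PyMT tumour. Levels are UMIs of a gene per 1000000 UMIs of the class (CPM), with an exact Poisson 95% interval that covers counting error only. With 1 library per tumour no test between tumours is possible, and no p-value is given. A ratio is called 2-fold when (CPM + 10) differs at least 2-fold and the gene has at least 50 UMIs on at least 1 side, and such a gene is referred to as measured. A gene under 10 CPM on both sides cannot reach this rule.

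**Figure D1:**
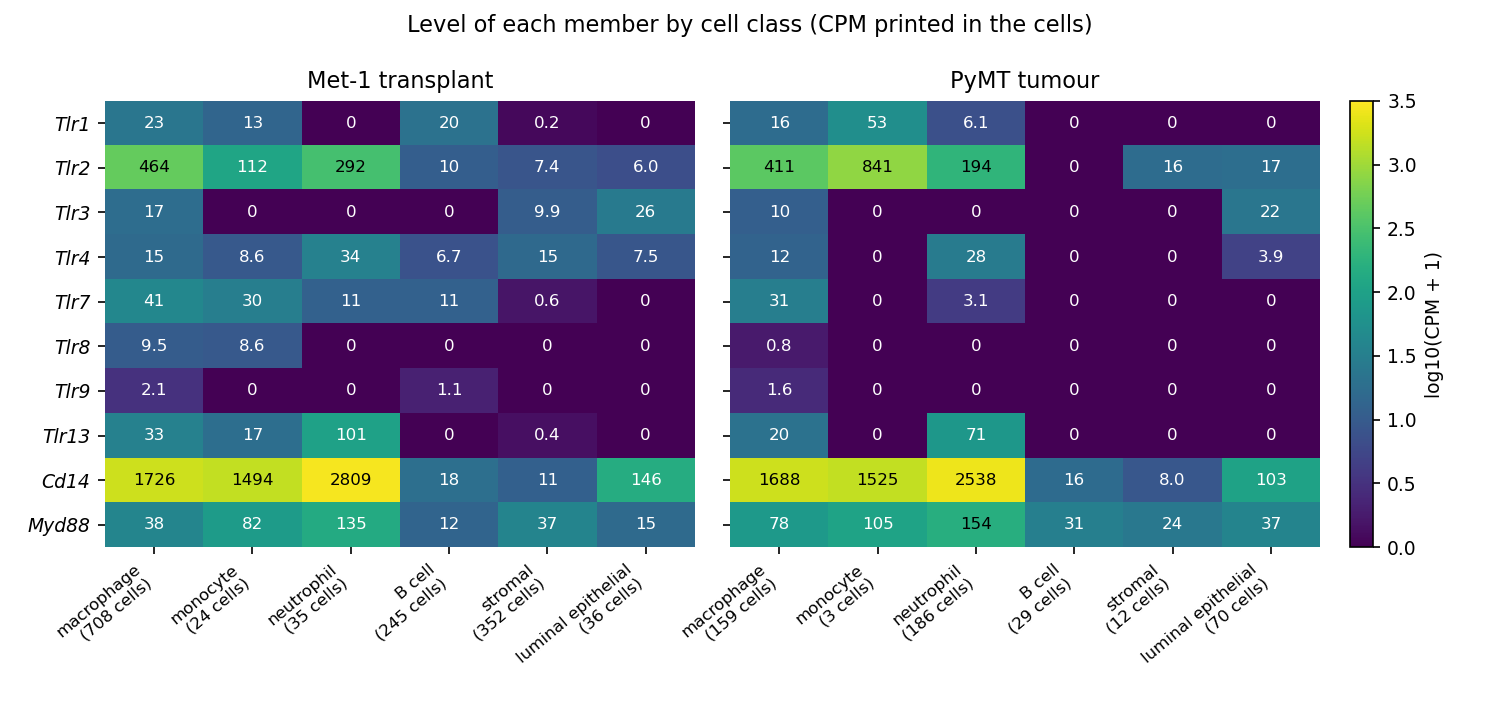
Level of the 10 members (rows) in 6 cell classes (columns) of the Met-1 transplant (left) and the PyMT tumour (right), as CPM printed in each cell and as log10(CPM + 1) by colour. Cd14 and Tlr2 stand out in macrophages, monocytes and neutrophils of both tumours, and Tlr9 stays at or below 2.11 CPM in the classes drawn.

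Cd14 was the member with the most UMIs. Macrophages had 1726 CPM of Cd14 (1692 to 1760) in the Met-1 transplant and 1688 CPM (1616 to 1762) in the PyMT tumour. Neutrophils were above macrophages in both tumours, at 2809 CPM (2472 to 3180) and 2538 CPM (2368 to 2717). Monocytes stood near macrophages, at 1494 CPM from 24 cells of the Met-1 transplant and 1525 CPM from 3 cells of the PyMT tumour. B cells (17.8 and 15.7 CPM) and stromal cells (10.9 and 8.02 CPM) were lowest of the 5 classes, and their intervals overlapped each other. Macrophages alone held 77.1% of all 12704 Cd14 UMIs of the Met-1 transplant and 56.4% of the 3724 Cd14 UMIs of the PyMT tumour, where neutrophils held a further 22.2%.

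The levels of Cd14 varied widely from macrophage to macrophage. A macrophage had a median of 7 Cd14 UMIs in the Met-1 transplant (quartiles 1 and 20, maximum 168), against a median of 4 in the PyMT tumour (quartiles 0 and 20.5, maximum 79). After each cell was thinned to 1000 UMIs, 61.0% of Met-1 transplant macrophages (57.2 to 64.6) and 49.4% of PyMT tumour macrophages (41.3 to 57.4) had a Cd14 UMI, and the intervals overlap slightly. Without thinning the shares were 82.2% and 71.7%, at median depths of 7213 and 6682 UMIs. T cells, which are not known to make Cd14, gave the background: 1.14% of 263 T cells in the Met-1 transplant and 2.86% of 35 T cells in the PyMT tumour after thinning, at unthinned medians of 7283 and 3400 UMIs.

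Tlr2, the lipopeptide receptor, was the most abundant receptor by UMIs in macrophages. It stood at 464 CPM (446 to 482) in macrophages of the Met-1 transplant and at 411 CPM (377 to 449) in those of the PyMT tumour. Neutrophils had less, at 292 CPM (191 to 428) and 194 CPM (149 to 248). The 24 monocytes of the Met-1 transplant were lower again, at 112 CPM (72.9 to 164), whereas the 3 monocytes of the PyMT tumour had 16 Tlr2 UMIs, or 841 CPM (481 to 1366), of which 9 UMIs came from 1 cell. B cells had 10.0 CPM in the Met-1 transplant and no UMI in the PyMT tumour. Tlr2 had a UMI in 30.3% of thinned macrophages of the Met-1 transplant and in 25.9% of those of the PyMT tumour, against 1.52% and 0% of T cells, where 0 of 35 cells allows a share of up to 8.57% on a floor of 3 counts.

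Macrophages with a Tlr2 UMI also had a Cd14 UMI more often than macrophages without one. Among thinned macrophages with a Tlr2 UMI, 77.3% also had a Cd14 UMI in the Met-1 transplant, against 53.9% of those without Tlr2. The shares were 63.4% and 44.4% in the PyMT tumour. The shares ran the same way in neutrophils. In the Met-1 transplant, Cd14 was in 6 of 8 neutrophils with Tlr2 against 14 of 23 without it. In the PyMT tumour it was in 21 of 27 against 87 of 146. The pattern in macrophages was not particular to Tlr2. Cd14 was in 21 of 28 thinned macrophages with Tlr13 against 396 of 656 without it in the Met-1 transplant. In the PyMT tumour the counts were 5 of 6 against 73 of 152. For Tlr4 they were 9 of 12 against 408 of 672, and 2 of 2 against 76 of 156. Pairs of receptors did not all run this way. Tlr2 was in 4 of 16 thinned macrophages with Tlr1 against 203 of 668 without it in the Met-1 transplant. In the PyMT tumour the counts were 2 of 6 against 39 of 152. Tlr7 was in 1 of 28 with Tlr13 against 33 of 656 without it, and in 0 of 6 against 8 of 152. These are shares of cells within a library, and cells are not replicates.

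The promoter window of Tlr2 is shown because Tlr2 RNA was concentrated in phagocytes. Tlr2 lies at chr3:83836272-83841767 on the minus strand of GRCm38. The window runs from 250 bases before the gene's start to 50 bases after it, in the RefSeq annotation of GRCm38.p6. It spans chr3:83841559-83841858 on the minus strand, and is 62.0% G and C with 11 CpG pairs. Both strands of each promoter were searched for PU.1 (GAGGAAGT), C/EBP (TTGCGCAA), AP-1 (TGANTCA), NF-kB (GGG, any NN, then TTTCC), an interferon-stimulated response element (ISRE: TTTC, any NN, then TTTC) and CRE (TGACGTCA). None of these 6 spellings is in the Tlr2 window, so it has no capitals. Sites for the same factors with other letters were not searched for, here or in the other windows.
Tlr2 promoter: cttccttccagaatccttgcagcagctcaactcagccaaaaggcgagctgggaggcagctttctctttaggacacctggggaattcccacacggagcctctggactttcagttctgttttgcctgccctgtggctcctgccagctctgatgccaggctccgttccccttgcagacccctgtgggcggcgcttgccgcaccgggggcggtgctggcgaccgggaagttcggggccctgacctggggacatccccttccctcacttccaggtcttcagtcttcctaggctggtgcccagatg

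Tlr1, the partner of Tlr2, was low in every class. It had 22.7 CPM (19.0 to 27.0) in macrophages of the Met-1 transplant and 16.1 CPM (9.82 to 24.8) in those of the PyMT tumour. B cells of the Met-1 transplant stood at nearly the same level, 20.03 CPM (11.9 to 31.7) from 18 UMIs in 17 cells, and the 29 B cells of the PyMT tumour had no UMI, which leaves levels up to 47.2 CPM possible on a floor of 3 counts. Stromal cells of the Met-1 transplant had 1 Tlr1 UMI in 352 cells. Tlr1 and its paralogue Tlr6 lie 18468 bases apart on chromosome 5 and resemble each other in sequence, so a division of reads between them is uncertain. Tlr1 has a PU.1 match 23 bases before its start in 1 of its 2 promoter windows, and 3.11% of all 32544 promoter windows hold such a match.

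Tlr4, the lipopolysaccharide receptor, was low, and in the Met-1 transplant its levels in macrophages and stromal cells did not differ beyond their intervals. In the Met-1 transplant it had 15.3 CPM (12.3 to 18.9) in macrophages, 14.7 CPM (11.6 to 18.4) in stromal cells, 33.7 CPM in neutrophils from 3 UMIs and 6.68 CPM in B cells. In the PyMT tumour, macrophages had 12.1 CPM (6.75 to 19.9), neutrophils had 27.7 CPM (12.6 to 52.5), and stromal cells and B cells had no UMI among 12 and 29 cells. Fibroblasts (14.96 CPM, 60 UMIs) and mural cells (13.9 CPM, 17 UMIs) of the Met-1 transplant did not differ beyond their intervals. These classes overlap in the unsupervised clustering of all genes, where 155 of the 247 fibroblasts fell into the cluster of the mural cells, 79 into a fibroblast cluster and 13 into a macrophage cluster. In this split, made after the data were seen, Tlr4 was 23.8 CPM (15.6 to 34.9) in the 79 fibroblasts, 11.9 CPM (8.27 to 16.7) in the 155 and had no UMI in the 13. Tlr4 lies at chr4:66827584-66930284 on the plus strand of GRCm38.

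Among the endosomal receptors, Tlr13 was found mainly in phagocytes. Tlr7 was found mainly in macrophages, with 7 UMIs (30.1 CPM) in the 24 monocytes of the Met-1 transplant. Macrophages had 41.2 CPM of Tlr7 (36.1 to 46.9) in the Met-1 transplant and 30.5 CPM (21.6 to 41.9) in the PyMT tumour. Neutrophils had 1 Tlr7 UMI in each tumour, and B cells of the Met-1 transplant had 11.1 CPM (5.34 to 20.5) from 10 UMIs in 10 cells. Tlr13 was highest in neutrophils, at 101 CPM (46.2 to 192) in the Met-1 transplant and 70.7 CPM (44.8 to 106) in the PyMT tumour. Macrophages had 33.5 CPM (28.9 to 38.6) and 20.1 CPM (13 to 29.7) of Tlr13. No Tlr13 UMI was counted in B, T or luminal epithelial cells of either tumour, and stromal cells held 2 in the Met-1 transplant and 0 in the PyMT tumour.

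The Tlr13 promoter window is shown because Tlr13 was the receptor with the highest neutrophil level relative to macrophages in both tumours. It spans chrX:106143025-106143324 on the plus strand and holds 5 CpG pairs, and none of the 6 motifs matches.
Tlr13 promoter: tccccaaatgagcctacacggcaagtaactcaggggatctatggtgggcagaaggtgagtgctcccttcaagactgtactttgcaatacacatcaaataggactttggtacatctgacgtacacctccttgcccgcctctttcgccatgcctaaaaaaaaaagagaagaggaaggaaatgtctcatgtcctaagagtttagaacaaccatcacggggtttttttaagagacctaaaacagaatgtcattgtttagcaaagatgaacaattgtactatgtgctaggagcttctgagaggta

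Tlr9, and Tlr8 in the PyMT tumour, were near the limit of detection, and Tlr8 was low in the Met-1 transplant. Tlr8 had 54 UMIs in 51 macrophages of the Met-1 transplant, which is 9.51 CPM (7.15 to 12.4), and 1 UMI in 159 macrophages of the PyMT tumour, which is 0.804 CPM (0.0203 to 4.48). Outside macrophages and monocytes, none of the classes in the plot of levels by class had a Tlr8 UMI. Tlr9 had 12 UMIs in macrophages of the Met-1 transplant and 2 in those of the PyMT tumour. A single Tlr9 UMI was found in 245 B cells, a cell type known for Tlr9, at a floor of 3.34 CPM. Tlr7 and Tlr8 lie 40600 bases apart on the X chromosome.

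Tlr3, the receptor for double-stranded RNA, had another distribution. It had 16.6 CPM (13.4 to 20.3) in macrophages, 9.93 CPM (7.42 to 13.02) in stromal cells and 25.6 CPM (17 UMIs in 10 of 36 cells) in luminal epithelial cells of the Met-1 transplant. Tlr3 had 10.4 CPM (5.56 to 17.9) in macrophages and 22.3 CPM (23 UMIs in 15 of 70 cells) in luminal epithelial cells of the PyMT tumour. Neutrophils, monocytes and B cells of both tumours had no Tlr3 UMI, and 186 neutrophils of the PyMT tumour limit the level to under 9.22 CPM on a floor of 3 counts. Tlr3 overlaps an antisense gene, Gm45542, on the opposite strand, and no source used here says whether strand was used in counting.

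The Tlr3 promoter window is shown because Tlr3 RNA was present in epithelial and stromal cells. It spans chr8:45410331-45410630 on the minus strand and holds 10 CpG pairs. The capitals mark an NF-kB match 211 bases before the RefSeq start, a motif found in 1.61% of all promoter windows. The whole window lies inside the gene as placed by GENCODE (chr8:45395665-45411080).
Tlr3 promoter: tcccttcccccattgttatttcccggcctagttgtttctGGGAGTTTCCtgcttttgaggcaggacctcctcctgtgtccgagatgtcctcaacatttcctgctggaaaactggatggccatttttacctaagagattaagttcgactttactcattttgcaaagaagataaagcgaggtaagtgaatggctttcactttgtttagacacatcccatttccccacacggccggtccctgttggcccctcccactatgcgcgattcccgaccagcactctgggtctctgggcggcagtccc

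Myd88, the shared adaptor, was found in every class described. In the Met-1 transplant it had 135 CPM (69.7 to 236) in neutrophils, 81.6 CPM (49.1 to 127) in monocytes, 37.7 CPM (32.8 to 43.1) in macrophages, 36.9 CPM (31.8 to 42.4) in stromal cells and 12.2 CPM (6.11 to 21.9) in B cells. In the PyMT tumour it had 154 CPM (114 to 203) in neutrophils and 78.0 CPM (63.2 to 95.1) in macrophages, with 2 or 3 UMIs in each of the other 3 classes. Macrophages and stromal cells of the Met-1 transplant did not differ beyond their intervals, and neither did its neutrophils and monocytes. Myd88 overlaps Slc22a14 on the same strand and Acaa1a on the opposite strand, so that some of its UMIs could come from those genes or be lost to them.

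The Myd88 promoter window is shown because Myd88 RNA was found in all 5 classes of both tumours. It spans chr9:119339969-119340268 on the minus strand and holds 13 CpG pairs, against a median of 7 over all windows. The capitals mark an ISRE match on the opposite strand, 40 bases before the RefSeq start, and 3.45% of all promoter windows hold such a match. The whole window lies inside the gene as placed by GENCODE (chr9:119335934-119341411). RefSeq windows matched 7 of the 10 members, and Tlr4, Tlr7 and Cd14 had none.
Myd88 promoter: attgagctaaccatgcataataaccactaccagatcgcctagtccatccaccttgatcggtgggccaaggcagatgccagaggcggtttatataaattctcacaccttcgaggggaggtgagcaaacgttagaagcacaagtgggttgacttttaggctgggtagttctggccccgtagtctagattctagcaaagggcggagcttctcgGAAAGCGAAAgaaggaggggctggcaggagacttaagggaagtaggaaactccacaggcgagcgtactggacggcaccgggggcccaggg

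Macrophages were compared with all other kept cells of their own library. In the Met-1 transplant 5 of 9 measured members were at least 2-fold higher in macrophages (Tlr1, Tlr2, Tlr7, Tlr13 and Cd14), where 6.69% of all genes were higher, and 0 were lower, where 12.7% of all genes were. Tlr2 was 9.51 times (8.75 to 10.4) and Cd14 8.45 times (8.10 to 8.81) the level of the other cells. Tlr8, under 10 CPM on both sides, could not reach the rule. Its ratio was 13.5 (6.83 to 29.8), from 54 UMIs against 10 UMIs. Macrophages of the PyMT tumour had 2 of 3 measured members higher, Tlr2 at 4.55 times (3.92 to 5.29) and Cd14 at 3.17 times (2.97 to 3.39), where 7.13% of all genes were higher and 17.0% lower. Neutrophils were 1.65% of kept cells in the Met-1 transplant and 31.6% in the PyMT tumour, and they are among the other cells. Mixed barcodes, those with markers of more than 1 class, are among them too (263 and 76). These barcodes held 17.0% and 24.2% of all UMIs of the macrophage gene Csf1r, so the other cells include macrophage RNA. Myd88 was within 2-fold in both tumours.

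Cells of other classes carried some macrophage RNA, and the members were read against it. Csf1r, Fcgr1, Cd68 and C3ar1, macrophage genes that were not used to set the classes, stood in stromal cells of the Met-1 transplant at 0.492% (0.354 to 0.666) of their summed macrophage level, and in B cells at 1.16% (0.676 to 1.86). Cd14 in stromal cells stood at 0.631% (0.477 to 0.818) of its macrophage level and in B cells at 1.03% (0.589 to 1.68), so neither exceeded the macrophage background. Tlr2 in fibroblasts stood at 1.93% (1.35 to 2.69), above the background of 0.489% (0.334 to 0.691) there. By cluster, Tlr2 was 15.6 CPM (9.07 to 24.9) in the 79 fibroblasts of the fibroblast cluster and 5.97 CPM (3.48 to 9.55) in the 155 of the mural cluster, with 17 UMIs each, and the 13 in a macrophage cluster held 2 UMIs. Tlr4 in stromal cells (95.9%), Tlr3 in stromal cells (60.0%), Myd88 in stromal cells (97.8%) and Tlr1 in B cells (88.1%) were far above the background. In B cells, Tlr4 (43.6%, 6 UMIs), Myd88 (32.5%, 11 UMIs) and Tlr7 (27.0%, 10 UMIs) were above the background there as well.

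**Figure D2:**
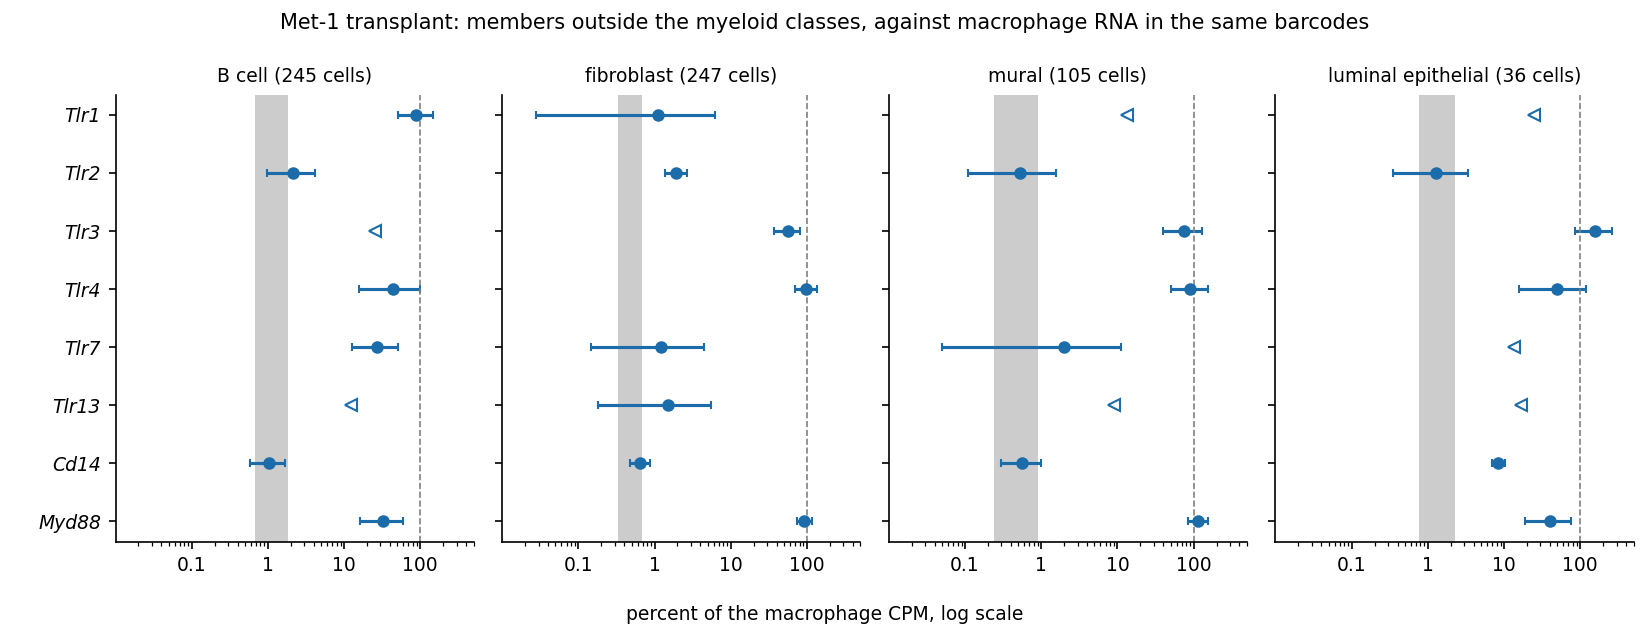
Level of 8 members in 4 classes of the Met-1 transplant, as percent of the macrophage CPM of the same gene on a log axis (points, with 95% intervals; open triangles are the upper limit where no UMI was counted). The grey band is the 95% interval of 4 macrophage genes outside the gate, the dashed line is 100%, and Cd14 lies within the band in B cells, overlaps it in fibroblasts and mural cells, and lies above it in luminal epithelial cells.

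Relative to the other kept cells of the Met-1 transplant, 5 of 9 measured members were at least 2-fold lower in stromal cells (Tlr1, Tlr2, Tlr7, Tlr13 and Cd14), where 10.7% of all genes were lower. In B cells 5 of 9 were lower (Tlr2, Tlr3, Tlr13, Cd14 and Myd88), where 19.1% of all genes were lower, and in the 29 B cells of the PyMT tumour 3 of 4 were lower (Tlr2, Tlr13 and Cd14), where 43.3% of all genes were. The Tlr13 call in those 29 cells rests on 0 UMIs, which allows up to 4.08 times the level of the other cells, so a lower level was not detectable at this depth. Tlr1 in B cells was 2.12 times the level of the other cells (1.23 to 3.44) but within 2-fold on the CPM + 10 scale. Monocytes of the Met-1 transplant had Cd14 at 2.38 times (2.13 to 2.65) and Myd88 at 2.46 times (1.47 to 3.87) the level of the other cells, 2 of 9 measured members where 3.91% of all genes were higher. Tlr3 was the 1 member past the rule downwards, where 17.9% of all genes were, but its 0 UMIs in 24 cells allow up to 1.58 times the level of the other cells, so a lower level was not detectable. Against macrophages, those 24 monocytes had 0.241 times the Tlr2 level (0.157 to 0.353), and Tlr2 and Tlr3 were the 2 members of 9 called lower, where 15.1% of all genes were lower. The Tlr3 call rests on 0 UMIs, with an upper limit of 0.975 times the macrophage level.

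Neutrophils and macrophages, the classes with the highest Cd14, differed in the levels of several members that both carried. Cd14 in neutrophils was 1.63 times the macrophage level (1.43 to 1.85) in the Met-1 transplant and 1.5 times (1.39 to 1.63) in the PyMT tumour. Tlr13 was 3.02 times (1.36 to 5.86) and 3.52 times (1.91 to 6.46) the macrophage level. Myd88 was 3.58 times (1.82 to 6.38) and 1.97 times (1.37 to 2.80). Tlr2 was lower in neutrophils of both tumours, at 0.630 times (0.411 to 0.925) and 0.470 times (0.356 to 0.612) the macrophage level. For Tlr4 the ratios were 2.20 and 2.29, and both intervals include 1. Against all other kept cells of the Met-1 transplant, 4 of 9 measured members passed the 2-fold rule upwards in neutrophils (Tlr4, Tlr13, Cd14 and Myd88) and Tlr3 downwards, where 7.31% of all genes were higher and 35.6% lower. Tlr4 rests on 3 UMIs, with an interval from 0.633 to 9.16 times the level of the other cells, and the 0 UMIs of Tlr3 allow up to 4.17 times, so for neither was a difference detectable. Against the other cells of the PyMT tumour Cd14 (3.48 times) and Myd88 (3.08 times) were higher in neutrophils, where 8.95% of all genes were.

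By the 2-fold rule against macrophages, Tlr13 and Myd88 were higher and Tlr1, Tlr3 and Tlr7 lower in neutrophils of the Met-1 transplant, among 9 measured members, where 8.52% of all genes were higher and 39.4% lower. The 3 lower calls rest on 0, 0 and 1 neutrophil UMIs in genes that reached 50 UMIs through macrophages. Their intervals reach 1.85 times the macrophage level for Tlr1, 2.55 times for Tlr3 and 1.53 times for Tlr7, so a lower level was not detectable at this depth. With classes from Leiden clusters Tlr3 alone, still at 0 UMIs, was called lower. Of 3 members measured in the PyMT tumour, 0 were higher and Tlr2 was lower, where 13.7% of all genes were higher and 28.3% lower. That Tlr2 call was lost, at a ratio of 0.511, when each cell needed at least 5 markers, and at 0.520 when classes came from Leiden clusters. Tlr7 did not reach 50 UMIs on either side in the PyMT tumour. Its 1 UMI in 186 neutrophils there stood at 10.1% (0.248 to 59.5) of the macrophage level, an interval below equal levels. The median gene was lower in neutrophils by 0.63 and 0.32 on the log2 scale. Neutrophils also held less RNA, with a median of 2698 UMIs in the Met-1 transplant and 1608 UMIs in the PyMT tumour. Per cell, the order for Cd14 was the opposite, with 7.14 and 4.44 UMIs in a neutrophil, against 13.8 and 13.2 UMIs in a macrophage.

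**Figure D3:**
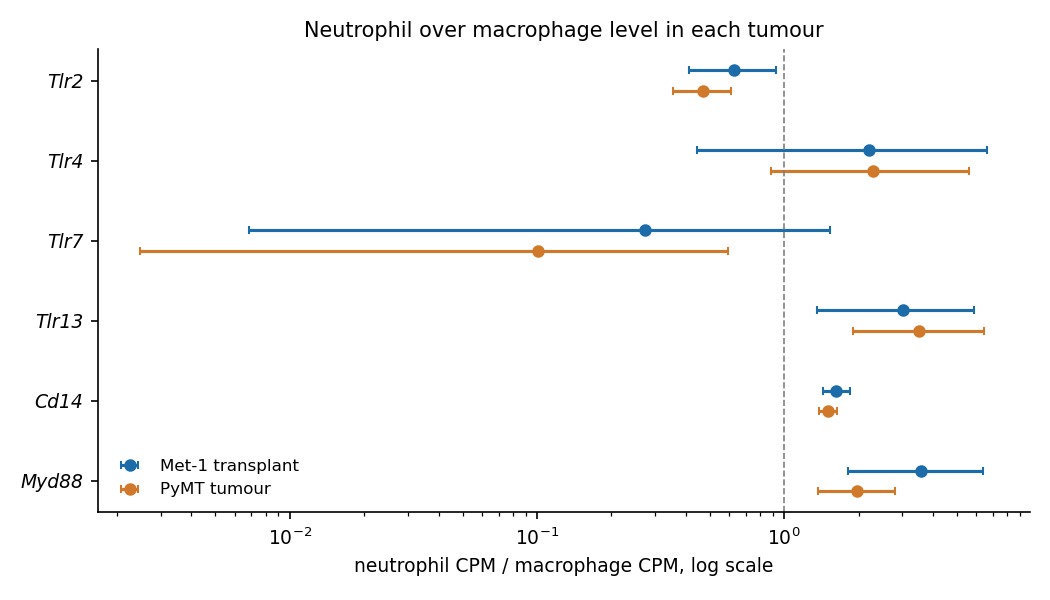
Ratio of neutrophil to macrophage CPM for 6 members (rows) in the Met-1 transplant (blue, upper point of each pair) and the PyMT tumour (orange), on a log axis with exact 95% intervals. The dashed line marks equal levels, and Tlr13, Cd14 and Myd88 lie to its right and Tlr2 to its left in both tumours. Tlr4 lies to its right and Tlr7 to its left as well. Their intervals cross the line, except that of Tlr7 in the PyMT tumour.

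Between the tumours, macrophages carried Cd14 and Tlr2 at levels within 1.13-fold of each other, and Myd88 lower in the Met-1 transplant. None of the 9 measured members was at least 2-fold apart on the CPM + 10 scale, where 8.02% of all genes were, 6.73% higher and 1.28% lower in the Met-1 transplant. Tlr8, under 10 CPM in both tumours, could not reach this rule. Cd14 was 1.02 times (0.975 to 1.07) and Tlr2 1.13 times (1.03 to 1.24) the PyMT tumour level. Tlr13 was 1.67 times (1.09 to 2.64), and the intervals of Tlr1, Tlr3, Tlr4 and Tlr7, with ratios between 1.27 and 1.59, all include 1. The median of all genes measured was 0.16 higher in the Met-1 transplant on the log2 scale.

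Myd88 and Tlr8 were the members farthest from equal. Myd88 in macrophages of the Met-1 transplant was 0.484 times (0.379 to 0.621) its level in those of the PyMT tumour, a log2 ratio of -0.88 on the CPM + 10 scale. Tlr8 was 11.8 times its PyMT tumour level, with an interval from 2.04 to 476 because it rests on 54 UMIs against 1 UMI. On the CPM + 10 scale it was within 2-fold, as any gene under 10 CPM on both sides must be. With a pseudocount of 1 CPM both pass the 2-fold rule, Tlr8 as higher and Myd88 as lower.

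Macrophages of the tumours also differed in RNA of other classes. The 12 neutrophil markers summed to 137 CPM in macrophages of the Met-1 transplant, with 10 of 12 detected, and to 245 CPM in those of the PyMT tumour, with 9 of 12 detected, which is 0.0951% and 0.293% of the neutrophil level. In the 377 and 53 macrophages with no UMI of any neutrophil marker, Myd88 was 35.9 CPM (28.7 to 44.3) in the Met-1 transplant and 68.6 CPM (40.7 to 108) in the PyMT tumour. In the same cells Cd14 was 1426 CPM (1379 to 1475) and 1029 CPM (910 to 1159), so that its intervals did not overlap there. Tlr2 was 415 CPM (390 to 442) and 354 CPM (286 to 434) in them. Cells with fewer UMIs are more likely to lack a UMI of these markers, and depth was not matched in this choice. The values are therefore not those of all macrophages without neutrophil RNA, and the part of depth in them was not tested.

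Neutrophils of the tumours were compared as well. Of the 3 measured members, 0 were 2-fold apart, where 24.2% of all genes were. Cd14 was 1.11 times (0.957 to 1.28), Tlr2 1.51 times (0.917 to 2.42) and Myd88 0.878 times (0.425 to 1.67) the PyMT tumour level, and all 3 intervals include 1. The 35 neutrophils of the Met-1 transplant left the other members at 9 UMIs or fewer.

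**Figure D4:**
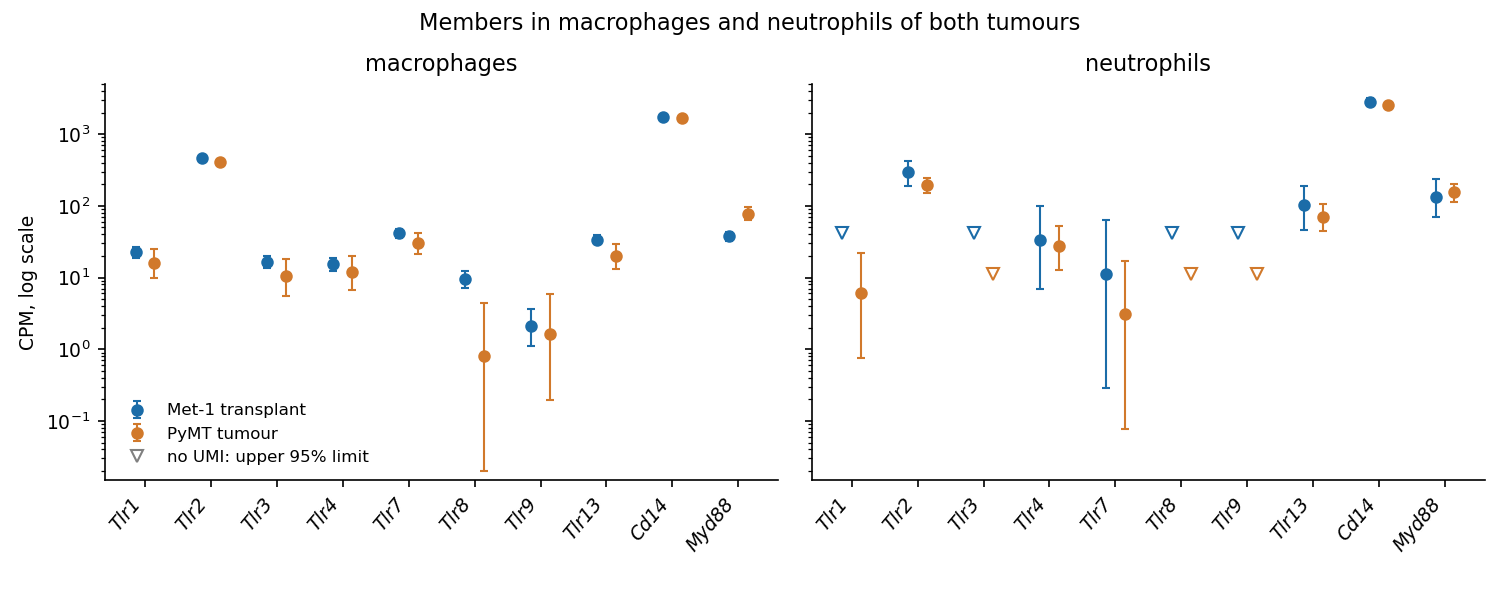
CPM of the 10 members in macrophages (left) and neutrophils (right) of the Met-1 transplant (blue) and the PyMT tumour (orange), on a log axis with exact Poisson 95% intervals, and open triangles at the upper limit where no UMI was counted. In macrophages, Tlr8, Tlr13 and Tlr2 lie higher in the Met-1 transplant and Myd88 higher in the PyMT tumour.

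Within macrophages, Cd14 and Tlr2 were lower in the smaller of 2 cell clusters in both tumours, and Tlr3, Tlr4 and Tlr13 were lower in it in the Met-1 transplant. Most macrophages fell into 2 clusters of the unsupervised clustering, a smaller one (124 cells in the Met-1 transplant and 50 in the PyMT tumour) led by the proliferation genes Birc5, Pclaf, Stmn1, Cks1b and Tubb5, and a larger one (578 and 105 cells) led by Hspa1a, Tiparp, Rasgef1b, Gadd45g and Tcp11l2. Cd14 was 665 CPM (612 to 722) in the smaller cluster and 1940 CPM (1901 to 1980) in the larger one of the Met-1 transplant. The values were 303 CPM (235 to 385) and 2009 CPM (1922 to 2100) in the PyMT tumour. Tlr2 was 231 and 512 CPM in the Met-1 transplant, and 109 and 482 CPM in the PyMT tumour. The clusters were made from all genes, so these values are a description.

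Myd88 and Tlr7 were closer in level between these clusters. Myd88 was 33.3 CPM (22.3 to 47.8) in the smaller and 36.7 CPM (31.4 to 42.5) in the larger cluster of the Met-1 transplant, and 63.4 CPM (34.6 to 106) and 78.5 CPM (62.0 to 98.1) in the PyMT tumour. Tlr7 was 32.2 and 43.0 CPM in the Met-1 transplant and 40.7 and 29.6 CPM in the PyMT tumour, with overlapping intervals. Tlr3 was 3.45 CPM (0.711 to 10.1) in the smaller and 19.2 CPM (15.4 to 23.5) in the larger cluster of the Met-1 transplant, and Tlr4 was 4.59 CPM (1.25 to 11.8) and 17.5 CPM (13.9 to 21.7). In the PyMT tumour, with 0 and 2 UMIs in the smaller and 13 each in the larger cluster, their intervals overlapped. Tlr13 was 17.2 CPM (9.64 to 28.4) and 36.9 CPM (31.6 to 42.8) in the Met-1 transplant, and 13.6 and 22.4 CPM with overlapping intervals in the PyMT tumour. C1qa, a macrophage marker, was 6009 CPM in the smaller and 5740 CPM in the larger cluster of the Met-1 transplant, and 7695 and 5996 CPM in the PyMT tumour. The smaller cluster was shallower, at medians of 4205 and 2880 UMIs against 7664 and 8733 UMIs in the larger one.

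Immediate early and heat shock genes moved with the same clusters. Fos, Fosb, Jun, Junb, Egr1, Hspa1a, Hspa1b, Dusp1, Atf3 and Ier2, a list chosen after the data were seen, summed to 4376 CPM in the smaller and 13116 CPM in the larger cluster of the Met-1 transplant, and to 2213 and 8808 CPM in the PyMT tumour. Hspa1a is also the first of the genes named above as leading the larger cluster. Over all macrophages the sum was 11660 CPM in the Met-1 transplant and 7536 CPM in the PyMT tumour, with 9 of the 10 genes higher in the Met-1 transplant and Junb lower. Dusp1, among the 9, was nearly equal at 1347 and 1342 CPM. In neutrophils 4 of the 10 were higher and 6 lower in the Met-1 transplant, with sums of 10912 and 12730 CPM. The part of these 10 genes in the Cd14 and Tlr2 values was not tested.

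**Figure D5:**
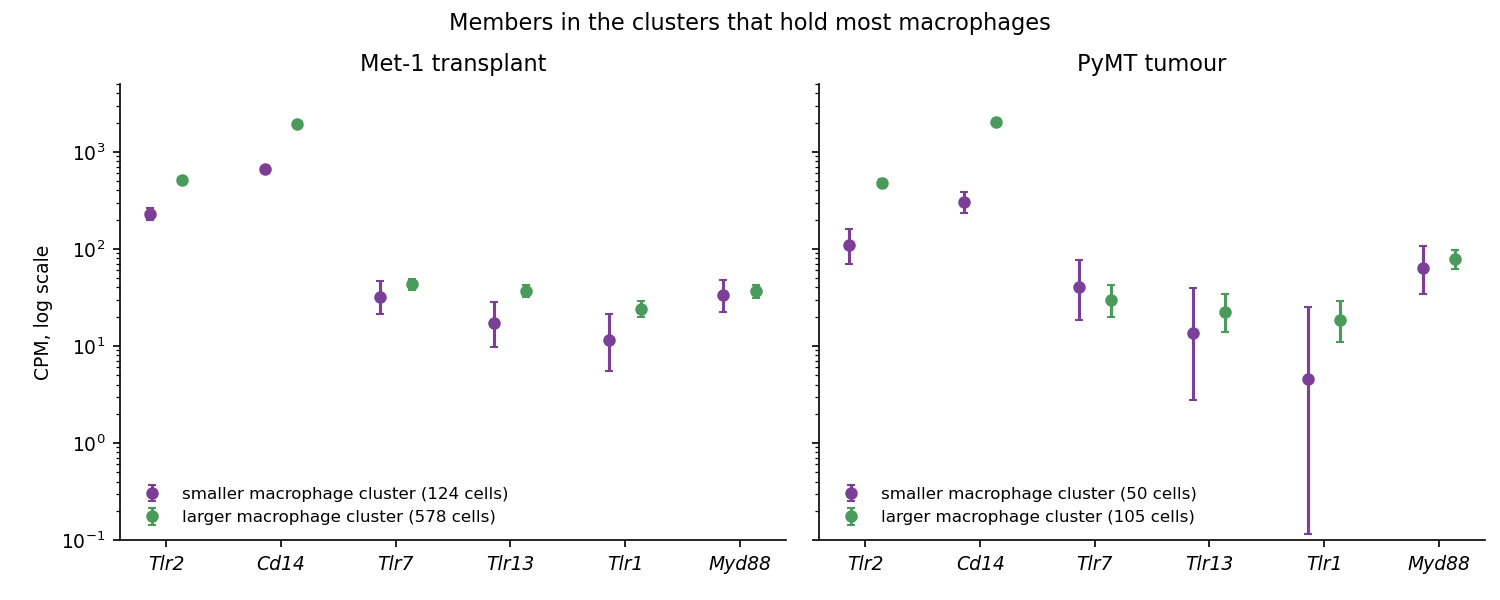
CPM of 6 members in the smaller (purple) and the larger (green) macrophage cluster of the Met-1 transplant (left) and the PyMT tumour (right), on a log axis with exact Poisson 95% intervals. Tlr2 and Cd14 lie lower in the smaller cluster of both tumours, while the intervals of Tlr7 and Myd88 overlap.

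Cycling macrophages, taken as those with at least 2 UMIs over 10 mitosis genes, had less Cd14 and Tlr2 as well. In the Met-1 transplant, 84 cycling macrophages had 1295 CPM of Cd14 (1229 to 1365) and the 624 others had 1828 CPM (1789 to 1867). The 19 cycling macrophages of the PyMT tumour had 1075 CPM (938 to 1226) and the 140 others 1810 CPM (1729 to 1893). Tlr2 was 378 and 484 CPM in the Met-1 transplant, and 213 and 451 CPM in the PyMT tumour. These cells were deeper than the others, at medians of 10576 and 10148 UMIs against 6866 and 6502 UMIs.

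The other genes of the pathway were read from 7 lists with 64 genes, of which 53 had at least 20 UMIs in macrophages of at least 1 tumour. In macrophages 2 of the 53 were at least 2-fold higher in the Met-1 transplant and 5 were lower, where 5.52% and 1.32% of all genes with at least 20 UMIs were. The higher genes were Rel, an NF-kB subunit, and Il12b, a subunit of interleukins 12 and 23. The lower genes were Nfkbia, the NF-kB inhibitor, and the target genes Cxcl1, Cxcl2, Tnf and Il10. The median log2 ratio of the 53 genes was 0.15, beside 0.14 over all genes.

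Among receptors outside the members, 2 of 5 were measured and 0 were called. Tlr12, an endosomal receptor that pairs with Tlr11 in mice, had 56.6 CPM in macrophages of the Met-1 transplant and 41.8 CPM in those of the PyMT tumour. Cd180, a receptor relative, had 82.8 and 51.4 CPM. Both were 0 or a single UMI in neutrophils of either tumour.

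Of the 7 co-receptor and delivery genes, 6 were measured and 0 were called. Cd36, a scavenger receptor that assists Tlr2, had 72.6 CPM in macrophages of the Met-1 transplant and 32.1 CPM in those of the PyMT tumour, and Hsp90b1, a chaperone of Toll-like receptors, had 592 and 320 CPM. Cnpy3, its co-chaperone, had 65.4 and 72.3 CPM, and Ly96 (MD-2), the partner of Tlr4, had 35.9 and 63.5 CPM.

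The signalling genes were mostly within 2-fold. Of 5 other adaptors 4 were measured, and 0 were called. Pik3ap1 had 29.4 CPM in macrophages of the Met-1 transplant and 11.3 CPM in those of the PyMT tumour, Ticam1, the adaptor of Tlr3, had 12.9 and 8.04 CPM, and Tirap, which bridges Tlr2 and Tlr4 to Myd88, had 5.81 and 8.84 CPM. Of 16 kinases and ubiquitin enzymes 15 were measured and 0 were called, with Irak1 at 70.1 and 34.6 CPM and Ube2n at 135 and 181 CPM. Rel, at 330 and 155 CPM, was the 1 called of 7 transcription factors, and Irf7 stood at 99.4 and 162 CPM. Nfkbia, at 475 and 1371 CPM, was the 1 called of 6 measured inhibitors, and Cyld stood at 60.6 and 26.5 CPM.

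The target genes held most of the calls, with 1 of 13 measured higher and 4 lower. Il12b had 29.8 CPM in macrophages of the Met-1 transplant and 4.82 CPM in those of the PyMT tumour, and Ccl5 had 271 and 151 CPM. Cxcl1, a neutrophil chemokine, had 46.7 and 164 CPM, and Il10 had 4.23 and 31.3 CPM. Cxcl2, another neutrophil chemokine, had 1563 and 3955 CPM, and Tnf had 120 and 268 CPM. The neutrophil RNA in these macrophages is given above: in macrophages with no UMI of a neutrophil marker, Nfkbia was 440 CPM in the Met-1 transplant and 1162 CPM in the PyMT tumour, and Cxcl2 was 1170 and 3045 CPM.

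Other genes of the pathway were compared between neutrophils and macrophages as well. Of 54 pathway genes measured in the Met-1 transplant, 9 reached the 2-fold rule upwards and 19 downwards in neutrophils, where 8.6% and 32.2% of all genes were. Of 42 in the PyMT tumour, 7 were higher and 11 lower, where 11.5% and 26.4% were. The median log2 ratio of the lists was -0.31 in the Met-1 transplant and -0.26 in the PyMT tumour, beside -0.58 and -0.34 over all genes. The counts of lower genes are near the shares over all genes.

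Some named genes had the same direction in both tumours. Acod1, the itaconate-making enzyme, had 1158 CPM in neutrophils and 3.17 CPM in macrophages of the Met-1 transplant, and 498 and 0.804 CPM in the PyMT tumour. Ptgs2, which makes prostaglandin precursors, had 888 and 38.8 CPM, and 688 and 57.1 CPM. Nfkbia had 3192 and 475 CPM, and 5577 and 1371 CPM. On the other side, Ly86 (MD-1), the partner of Cd180, had 33.7 CPM in neutrophils and 1013 CPM in macrophages of the Met-1 transplant, and 9.22 and 959 CPM in the PyMT tumour. Irf5, a transcription factor below Myd88, had 45.0 and 176 CPM, and 18.4 and 201 CPM. Hsp90b1 had 56.2 and 592 CPM, and 52.2 and 320 CPM.

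Against all other cells of their library, macrophages held much of the pathway at higher levels. Of 59 pathway genes measured in the Met-1 transplant, 18 were higher and 2 lower, where 5.88% and 11.1% of all genes were. The PyMT tumour had 14 of 51 higher and 3 lower, where 5.79% and 14.2% were. Ly86 had 1013 CPM in macrophages and 136 CPM in the other cells of the Met-1 transplant, and 959 and 129 CPM in the PyMT tumour. Unc93b1, which carries the endosomal receptors to their compartment, had 756 and 120 CPM, and 708 and 148 CPM. Lbp, the serum protein that brings lipopolysaccharide to Cd14, was lower in macrophages, at 1.41 and 70.9 CPM in the Met-1 transplant and 4.02 and 84.6 CPM in the PyMT tumour. Ccl5 was lower too, at 271 and 1572 CPM, and 151 and 1008 CPM.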

How the data were processed

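The authors deposited raw UMI counts for each barcode, and the submitters' processing notes name Cell Ranger 3.1.0 and mm10. The deposited counts were taken as whole-number counts, and the annotation release and the use of strand are not given in the sources used here. Barcodes with under 500 UMIs, under 200 genes, over 10% mitochondrial UMIs or a Scrublet doublet call (run in scanpy) were left out (332 of 2451 in the Met-1 transplant and 30 of 619 in the PyMT tumour, of which 16 and 1 were doublet calls). The kept barcodes held 19908483 UMIs in the Met-1 transplant and 4295404 UMIs in the PyMT tumour.

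A barcode joined the class with the most of its 12 markers detected, with at least 3. Barcodes where an unrelated class had at least 3 markers and at least 50% of that number, or where related classes tied, were called mixed (263 and 76) and a further 17 and 12 had no class. UMIs were summed per class, and intervals are exact Poisson, Clopper-Pearson or conditional binomial at 95%. Shares were taken after thinning each cell to 1000 UMIs, leaving out shallower cells. Levels of different genes are not scaled for length and are compared across classes of the same gene. Classes were compared between tumours with at least 30 cells in each and within a tumour with at least 20.

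The members, the marker lists and the 64 pathway genes were chosen with earlier results of these data known. The text names all 10 members, and for the pathway lists it draws on the 2 highest and 2 lowest genes per list and comparison. Tnf, and Cxcl2 in the comparison of the tumours, were named after their values were seen. For each member with at least 200 UMIs it gives the 3 genes most like it. Simulated counts with known changes were used to check the ratios. Clusters came from scanpy 1.11.5 with 2000 variable genes, 30 principal components and Leiden resolution 0.5. Promoter sequences are from RefSeq, and positions from GENCODE. Other settings were tried, and their effect is given at the end.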

Additional observations from a re-analysis of the deposited data

How the results depend on the processing

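Of 836 values for single members under the alternatives, 769 stayed within the 95% interval of the value given, 67 moved out of it and 0 turned round. The filter at 20% mitochondrial UMIs, the filter at 1000 UMIs and keeping doublet calls left all of these values, and all counts of members, within range. The mean CPM of single cells moved 18 of 100 values, CPM without mitochondrial and ribosomal protein genes 14 of 100, classes from Leiden clusters 9 of 104, and removing, for every gene, its highest cell 8 of 97. With a pseudocount of 1 CPM, 1 member was higher and 1 lower in macrophages of the Met-1 transplant, against 0 and 0, and 8 pathway genes were higher, against 2. With the mean CPM of single cells, 11 pathway genes were higher and 3 lower, and 1 member was higher in macrophages over the other cells of the PyMT tumour. With classes from Leiden clusters, 1 pathway gene was higher in macrophages of the Met-1 transplant, 1 member was lower in neutrophils over macrophages of the Met-1 transplant, and in the PyMT tumour 1 was higher and 0 lower. With at least 5 markers, 0 members were lower there, and with no filter on summed UMIs 1 was higher and 3 were lower. For these changes the cause was not tested. Thinning to 2000 UMIs gave Cd14 in 71.2% of macrophages of the Met-1 transplant and 60.5% of those of the PyMT tumour, and in 80.9% of neutrophils of the PyMT tumour, and no thinning gave 82.2% and 71.7% of macrophages. Comparing macrophages with the other cells without mixed and unclassed barcodes, chosen after seeing the data, moved 9 of 16 values. No paired analysis was possible because each tumour has 1 library. Depth limits Tlr8, Tlr9 and most members in neutrophils, B cells and stromal cells of the PyMT tumour.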

Other observations

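Luminal epithelial cells, a class outside the 5 described above, carried Cd14 above the macrophage background. It stood at 146 CPM in 36 cells of the Met-1 transplant and 103 CPM in 70 cells of the PyMT tumour, which is 8.45% (6.85 to 10.3) and 6.10% (4.97 to 7.42) of the macrophage level, beside 1.38% (0.774 to 2.28) and 0.478% (0.218 to 0.908) for 4 macrophage genes outside the gate. The 12 neutrophil markers stood in these cells at 1270 CPM in the Met-1 transplant, with 5 of 12 detected, and at 991 CPM in the PyMT tumour, with 10 of 12 detected, which is 0.878% and 1.18% of the neutrophil level. Their part in the Cd14 value was not tested. Luminal Tlr3 was 154% (86.3 to 261) and 214% (104 to 460) of the macrophage level, and Tlr1, Tlr7 and Tlr13 had no UMI in luminal cells of either tumour.

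Of 8 barcodes of the Met-1 transplant with mostly dendritic markers, 2 held all 5 Tlr3 UMIs of the class, and both were among the 3 barcodes with Xcr1 or Clec9a, markers of the conventional dendritic cells that take up dead cells. This is a count in very few cells.

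Genes whose levels followed a member most closely over the 14 class and tumour combinations with at least 20 cells were named by Pearson correlation of log2(CPM + 10), as a description, since the points share 2 libraries. For Tlr13 they were Ccr1 (0.99), Cd300lf (0.99) and Nlrp3 (0.98), and for Tlr2 they were Slc11a1, Cd300c2 and Gpr137b (0.97 to 0.98). Cd14 was followed by Pla2g7, Atp6v1b2 and Csf2ra (0.96 to 0.97), and Tlr7 by Rasa4, Fgd2 and Fcgr1 (0.94 to 0.95). Tlr3 was followed by Fblim1, Sh3bp4 and Tcf7l2 (0.95 to 0.97), Tlr4 by Med7, Gab2 and Cpne2 (0.93 to 0.95), Tlr1 by Pkib, Slc15a4 and Fgd2 (0.91 to 0.93), and Myd88 by Slc16a3, Card19 and Ninj1 (0.90 to 0.92). Tlr8 and Tlr9 had too few UMIs for this.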
